A study of Mus musculus with 6 samples.

Results

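RNA of Twist1 cKO mice (conditional knockout of the transcription factor gene Twist1, strain C57BL/6) was compared between bone marrow cells taken 12 days after irradiation and cells of the same gate at steady state, with no treatment. Genes entered the comparison at 5 FPKM or more (fragments per kilobase of transcript, scaled to the mapped reads of the library) in the higher of the 2 libraries, which kept 7393 of 30409 genes. The series holds 6 samples: these 2 RNA libraries, the matching wild-type pair, and 2 chromatin accessibility samples that were not analysed here. All cells were sorted as lineage-negative, Sca1+, cKit+, CD34-, Flk2- cells, the gate for long-term haematopoietic stem cells (LT-HSC). There was 1 library per group, and no source used here says whether a library pools several mice, which Cre line drove the deletion, which exons were deleted, or what the radiation dose was. No difference below therefore has a replicate check, and no p-value is given. The wild-type pair shares no library with the Twist1 cKO pair and is given beside it.

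LT-HSC are rare, mostly resting cells that sustain blood formation and are held in the marrow by niche signals such as angiopoietin 1, which acts through the receptor Tek. Irradiation kills dividing progenitors, and the surviving cells then divide and rebuild the blood lineages. Erythroid cells are driven by the factors Gata1 and Klf1, take up iron through the transferrin receptor, and make haem and globin in large amounts. Twist1 is a basic helix-loop-helix transcription factor best known from mesenchymal cells.

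Twist1 itself was close to the detection limit in these files. It had 2 reads (0.0490 FPKM) at steady state and 0 reads in the irradiated Twist1 cKO library, where 3 reads would be 0.0792 FPKM. The wild-type libraries had 6 reads (0.143 FPKM) and 5 reads (0.140 FPKM). At this depth the gene does not check the genotype labels, and no fold is given.

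LT-HSC identity transcripts were present at steady state and mostly under the minimum after irradiation. Of 40 LT-HSC identity genes, 29 reached 5 FPKM, and 23 of these did so at steady state only. Kit, the receptor on which the cells were gated, was at 27.6 FPKM at steady state and 4.98 FPKM after irradiation, whereas Ly6a, which encodes Sca1, was at 362 and 256 FPKM. Immunoglobulin and Jchain transcripts, which the sort should have removed with the cells that make them, took 10.7% of recovered reads at steady state and 10.1% after irradiation, so both libraries went against the label in part. The values of the irradiated library are not read as those of stem cells. Cd34, whose product the gate excludes, was at 29.2 FPKM at steady state and 0.322 FPKM after irradiation, and Flt3, which encodes the excluded Flk2, at 9.32 and 1.32 FPKM. Fewer cells of a type and less RNA per cell cannot be told apart in such bulk libraries.

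Recovered reads in genes numbered 22127571 at steady state and 20349832 after irradiation, so depth was similar. The irradiated library nevertheless had more genes above 0, 88.9% of all genes against 77.0%, and the 354 olfactory receptor genes, which blood cells barely transcribe, were above 0 in 74.3% against 34.7%. The Y-linked genes Ddx3y (12.4 and 0.0164 FPKM) and Eif2s3y (21.1 and 0.0102 FPKM) and the X-inactivation transcript Xist (0.0155 and 0.573 FPKM) differed between the libraries as they would between male and female mice. The wild-type pair showed the same, with Xist at 0.0171 FPKM at steady state and 1.0 FPKM after irradiation. Sex is not in the labels, so the sex of the mice and irradiation cannot be told apart in either genotype. Without genes of chromosomes X and Y, the counts given next were 744 higher and 1629 lower.

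Across the 7393 genes, 762 (10.3%) had levels 2-fold or more above steady state in the irradiated library and 1673 (22.6%) were 2-fold or more below it, as differences of log2(FPKM + 1). The median difference was -0.20, with quartiles of -0.90 and 0.47. Many of these genes had to differ because of the minimum: 1661 reached 5 FPKM at steady state only and 496 after irradiation only. Among the 5236 genes at 5 FPKM in both libraries, 462 were higher and 545 lower. Higher genes made up 31.3% of all those at least 2-fold apart, and this split depended on the scaling: it was 44.1% after centring on the median gene and 70.2% after scaling by the upper quartile, with 2033 genes higher and 865 lower. Directions are given below for lists whose median kept its sign under the scalings tried, or the turn is stated. At 1.5-fold, 1536 genes (20.8%) were higher and 2559 (34.6%) lower. The genes nearest the minimum were Rmi1 (5.0004 FPKM) and Snrnp200 (5.007 FPKM), which were kept, and Hspb11 and Dhrs3 (4.993 and 4.995 FPKM), which were not.

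**Figure D1:**
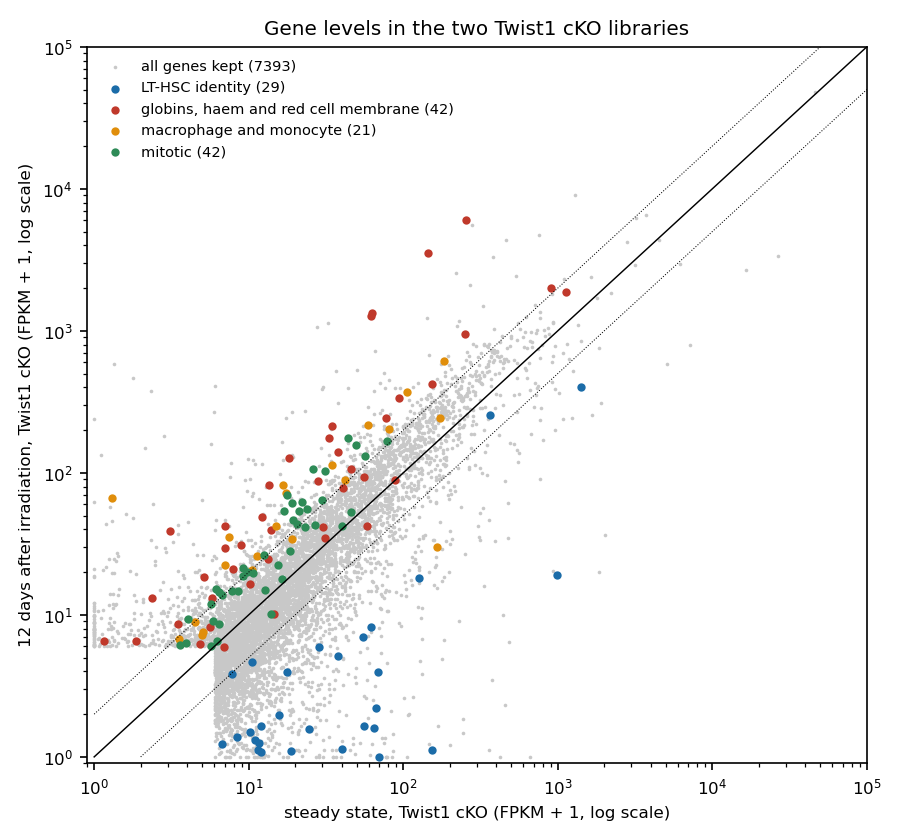
Level of each of the 7393 genes at steady state (x axis) and 12 days after irradiation (y axis) in Twist1 cKO, as FPKM + 1 on log scales, 1 library each. The solid line marks equal values and the dotted lines 2-fold differences; LT-HSC identity genes (blue) lie below the lower dotted line except Ly6a, and 29 of 42 globin, haem and red cell membrane genes (red) lie at least 2-fold higher.

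The LT-HSC identity genes were lower almost throughout. Of the 29 kept, 28 were at least 2-fold lower and 0 higher, against 22.6% and 10.3% of all genes. The median difference was -3.0, against -0.20 over all genes. Of the 29, 23 reached 5 FPKM at steady state only, and the median over the 6 at 5 FPKM in both libraries was -2.85. The summed level over all 40 members was 3771 FPKM at steady state and 740 FPKM after irradiation. Ly6a was the exception at 1.41-fold lower (95% counting interval 1.37 to 1.46), and its sign turned under upper-quartile scaling. Counting intervals here and below cover counting error only.

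The list includes receptors and ligands of the stem cell niche. Angpt1 (chromosome 15, 42424667 to 42676977), the ligand of the receptor Tek, was at 63.3 FPKM at steady state and 0.601 FPKM after irradiation, from 6801 and 60 reads, or 105-fold lower (81.7 to 138), and Tek at 5.73 and 0.226 FPKM. Procr, a surface receptor by which LT-HSC are often sorted, was at 66.1 and 1.22 FPKM. Cd27, Esam and Slamf1 were lower as well, Slamf1 by the least at 6.82 and 2.81 FPKM. The separate list of niche adhesion and homing receptors also holds Tek. Of its 14 genes kept, 5 were at least 2-fold lower and 0 higher, where 22.6% of all genes were lower. Its median of -0.48 turned to 0.33 under upper-quartile scaling. Of the 14, 5 reached 5 FPKM at steady state only, and the median over the 9 at 5 FPKM in both libraries was -0.24.

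The transcription factors of the list were lower in the same way. Nkx2-3 (chromosome 19, 43612325 to 43615892), a homeobox factor, was at 68.8 FPKM from 3670 reads at steady state and had 0 reads after irradiation, which is at least 1137-fold lower against a floor of 3 reads in that library. Mycn was at 38.9 and 0.142 FPKM, Hlf at 17.7 and 0.102 FPKM, and Meis1 at 23.5 and 0.583 FPKM. Of the Hoxa genes, Hoxa9 was the least different at 16.6 and 2.95 FPKM. Mecom, Prdm16, Hoxb4 and Hoxb5 stayed under 5 FPKM in both libraries: Mecom was at 4.44 and 0.106 FPKM and Prdm16 at 1.77 and 0.448 FPKM. The wild-type median of the list was -3.14, so the 2 genotypes gave close values.

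**Figure D2:**
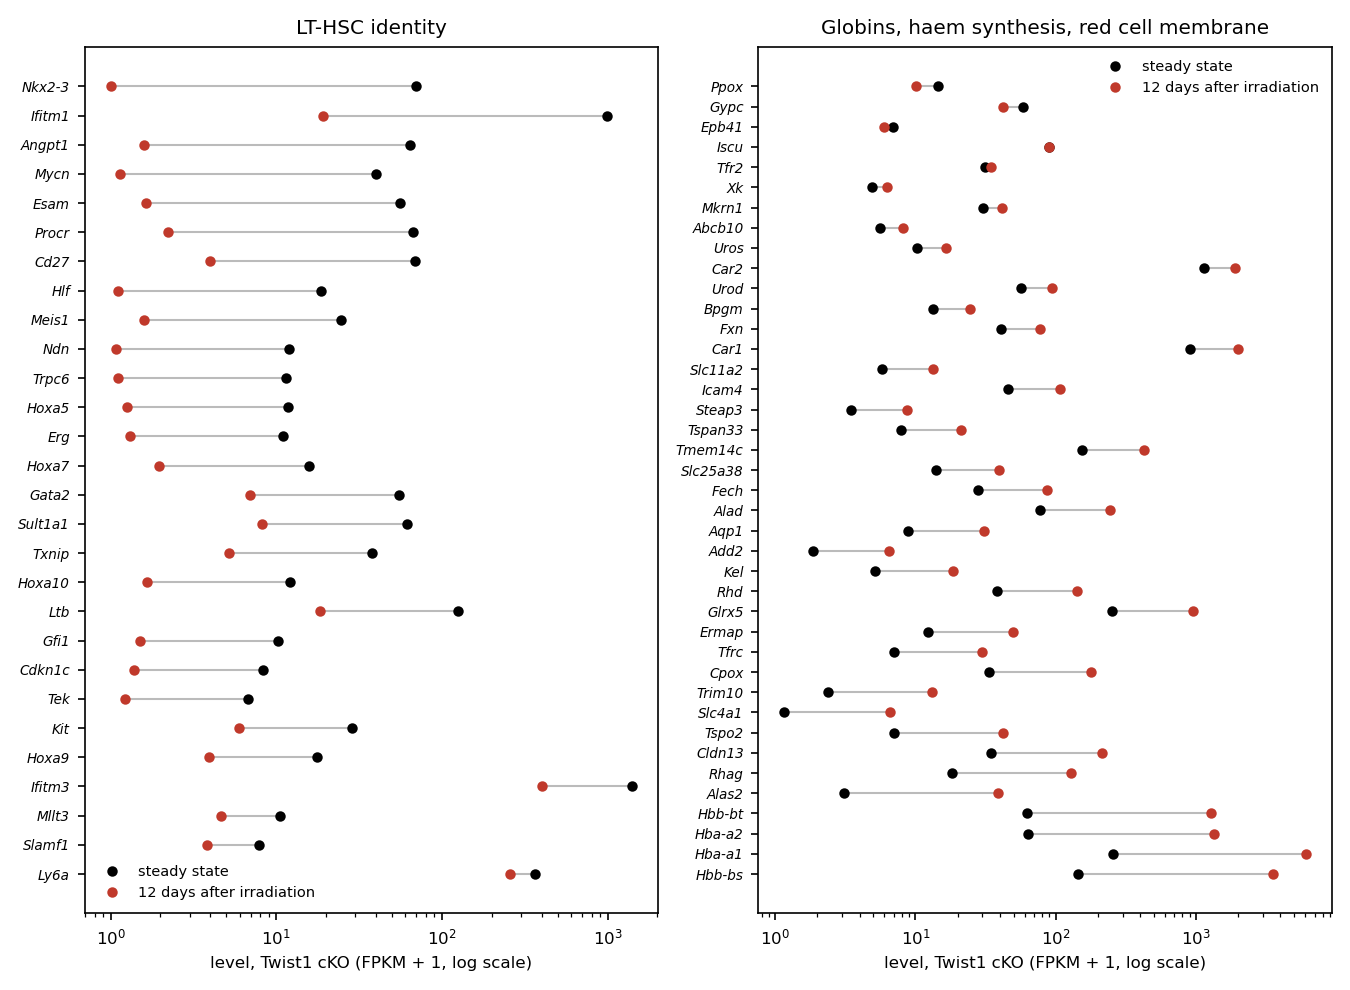
Levels (FPKM + 1, log scale) of 28 of the 29 LT-HSC identity genes kept (left) and 40 of the 42 globin, haem synthesis and red cell membrane genes kept (right) in Twist1 cKO at steady state (black) and 12 days after irradiation (red), 1 library each. Red points lie left of black for every gene of the left panel and right of black for all but 3 of the right panel.

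Several of the genes furthest below steady state after irradiation are not in the LT-HSC list. Ctla2a, a cysteine protease inhibitor gene, was at 1840 FPKM at steady state and 19.2 FPKM after irradiation, 95.9-fold lower (88.5 to 104). Its near copy Ctla2b was at 178 and 3.90 FPKM, and how reads were split between the copies is not known. Myct1 was at 85.1 and 0.108 FPKM and Adgrl4, an adhesion receptor also known from endothelium, at 60.0 and 0.0372 FPKM. Ifitm1, which is in the list, an interferon-inducible membrane protein gene with high constitutive levels in stem cells, was at 994 and 18 FPKM. Pcp4l1, Gng11 and Krt18 were also among the 12 genes with the largest differences in this direction, as was Nr4a1, described below. Of 5 endothelial markers kept, Tie1 (11.7 and 0.0260 FPKM), Emcn and Eng were at least 2-fold lower, while Egfl7 (17.5 and 19.6 FPKM) and Plvap (5.68 and 7.49 FPKM) were not. Over all genes 22.6% were lower by 2-fold, and the 3 lower endothelial markers reached 5 FPKM at steady state only.

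Megakaryocyte and platelet genes, many of which LT-HSC also transcribe, were at least 2-fold lower in 11 of 12 kept, against 22.6% of all genes. The list median was -3.25, but 8 of the 12 reached 5 FPKM at steady state only. Over the 4 at 5 FPKM in both libraries the median was -1.61. Itga2b, the platelet integrin CD41, was at 24.2 and 0.524 FPKM, and Pf4, platelet factor 4, at 249 and 25.7 FPKM. Gp5 was the member under 2-fold, at 16.2 and 12.3 FPKM. Among progenitor markers, 8 of 11 were at least 2-fold lower and 2 higher, with a median of -2.24. The granule proteases Elane (763 and 88.9 FPKM) and Prtn3 (182 and 17.6 FPKM) and the peroxidase Mpo (157 and 15.4 FPKM) were each more than 8-fold lower. Cd48, which marks cells that have left the stem cell compartment, was 3.19-fold higher, at 81.3 and 259 FPKM, and Irf8 was at 3.45 and 11.7 FPKM.

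Immediate early genes include AP-1, Egr, Klf and Nr4a factors linked to stem cell quiescence and also to the handling of sorted cells. They were at least 2-fold lower in 19 of 21 kept and higher in 0, against 22.6% and 10.3% of all genes. The median was -2.54 (wild type -2.33), and -2.62 over the 17 at 5 FPKM in both libraries. Nr4a1 was at 441 FPKM at steady state and 9.03 FPKM after irradiation, 48.9-fold lower (44.8 to 53.4). In wild type it was at 353 and 25.8 FPKM. Fos was at 1894 and 308 FPKM, Egr1 at 476 and 33.7 FPKM, Btg2 at 315 and 32.4 FPKM, and Dusp2 at 183 and 5.68 FPKM. Atf3 was the member that was level, at 13.1 and 13.2 FPKM. The labels do not give the time from marrow to lysis, and its part in these values was not tested.

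The 4 adult globin genes were the group with the highest median, 4.49, with all 4 at least 2-fold higher, against 10.3% of all genes. They encode the alpha and beta chains of haemoglobin. Hbb-bs (chromosome 7, 103826523 to 103827928) was at 143 FPKM at steady state and 3563 FPKM after irradiation, 24.8-fold higher (24.0 to 25.7). Hba-a1 (chromosome 11, 32283672 to 32284486) was at 255 and 6074 FPKM, 23.9-fold higher (23.2 to 24.5). Hba-a2 and Hbb-bt, at 1336 and 1271 FPKM after irradiation, are near-identical copies of these, so the division of reads within each pair is uncertain. Globin reads were 0.0474% of recovered reads at steady state and 1.13% after irradiation, and in wild type 0.114% and 0.377%. The embryonic globins Hbb-y (0.0599 and 0.645 FPKM) and Hbb-bh2 (0.0892 and 0.576 FPKM) stayed under 1 FPKM.

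The promoters of the 4 globins and of Alas2, the erythroid enzyme described next, are shown because the globin list had the highest median of all lists and Gata1, which binds GATA motifs, was higher too. The stretches are the 250 bases before the start of each gene, 5′ to 3′ on the gene's strand, from RefSeq on GRCm38.p6: Hbb-bs at chr7:103827929-103828178 and Hbb-bt at chr7:103813924-103814173 (both minus strand), and Hba-a1 at chr11:32283422-32283671, Hba-a2 at chr11:32296242-32296491 and Alas2 at chrX:150547167-150547416 (plus strand). Capitals mark a GATA motif, searched on both strands as AGATAA or AGATAG and, with another first base, as TGATAA or TGATAG; in Alas2 the capitals are AGATAA read on the other strand, and Hbb-bt holds no match.
Hbb-bs: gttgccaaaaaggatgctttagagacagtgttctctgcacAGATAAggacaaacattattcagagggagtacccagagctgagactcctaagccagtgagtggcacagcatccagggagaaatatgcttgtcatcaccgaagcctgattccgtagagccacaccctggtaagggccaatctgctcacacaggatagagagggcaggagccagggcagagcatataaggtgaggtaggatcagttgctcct
Hbb-bt: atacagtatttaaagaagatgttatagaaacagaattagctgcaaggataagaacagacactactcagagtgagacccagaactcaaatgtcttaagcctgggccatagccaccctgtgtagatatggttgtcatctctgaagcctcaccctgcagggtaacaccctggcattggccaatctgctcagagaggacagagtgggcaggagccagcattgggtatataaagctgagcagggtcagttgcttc
Hba-a1: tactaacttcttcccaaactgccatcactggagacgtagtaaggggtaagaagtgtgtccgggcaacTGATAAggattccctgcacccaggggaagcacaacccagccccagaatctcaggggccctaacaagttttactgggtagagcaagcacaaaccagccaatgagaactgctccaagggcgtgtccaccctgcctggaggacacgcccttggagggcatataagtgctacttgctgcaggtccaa
Hba-a2: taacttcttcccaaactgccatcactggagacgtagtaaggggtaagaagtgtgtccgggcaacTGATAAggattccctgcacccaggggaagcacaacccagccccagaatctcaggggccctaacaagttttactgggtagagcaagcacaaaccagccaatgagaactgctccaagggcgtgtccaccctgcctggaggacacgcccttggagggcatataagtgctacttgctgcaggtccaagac
Alas2: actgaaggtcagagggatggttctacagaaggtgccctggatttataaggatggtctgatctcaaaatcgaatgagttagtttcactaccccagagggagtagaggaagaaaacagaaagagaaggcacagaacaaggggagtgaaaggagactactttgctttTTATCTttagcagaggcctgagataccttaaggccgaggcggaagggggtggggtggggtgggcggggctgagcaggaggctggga

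The motif began 210 bases before the start in Hbb-bs, 183 bases in Hba-a1, 186 bases in Hba-a2 and 86 bases in Alas2. In windows of 300 bases (250 before the start and 50 after), it was found in 33.0% of the 27025 genes of the RefSeq table and in 22.4% of the 5403 kept genes that have an entry. Of 40 kept genes of the globin, haem, membrane and erythroid factor lists with an entry, 21 (52.5%) held it. Among kept genes at least 2-fold higher, 28.7% of 422 held it, and among those at least 2-fold lower 25.7% of 1208. A match is a description of the letters and not evidence of binding.

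Haem synthesis and iron uptake genes were at least 2-fold higher in 12 of 19 kept and lower in 0, against 10.3% and 22.6% of all genes. The median was 1.47 (wild type 1.64). Of the 19, 4 reached 5 FPKM after irradiation only, and the median over the 15 at 5 FPKM in both libraries was 1.49. Alas2, the erythroid enzyme of the first step of haem synthesis, was at 2.11 FPKM at steady state and 37.9 FPKM after irradiation, 18-fold higher (15 to 21.7). Later enzymes were higher by less: Alad was at 76.0 and 244 FPKM, Cpox at 32.2 and 176 FPKM, and Fech, which inserts the iron, at 26.9 and 86.2 FPKM. Ppox, which acts between Cpox and Fech, was at 13.6 and 9.08 FPKM. Tfrc, the transferrin receptor, was at 6.00 and 28.7 FPKM, 4.79-fold higher (4.46 to 5.15). Glrx5, an iron-sulphur cluster protein of mitochondria, was at 250 and 946 FPKM.

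Red cell membrane and blood group genes were at least 2-fold higher in 13 of 19 kept and lower in 0, against 10.3% and 22.6% of all genes. The median was 1.80 (wild type 1.63). Of the 19, 5 reached 5 FPKM after irradiation only and 1 at steady state only. The median over the 13 at 5 FPKM in both libraries was 1.42. Rhag, of the Rhesus complex, was at 17.1 and 127 FPKM and Cldn13 at 33.7 and 213 FPKM. Slc4a1, the anion exchanger band 3 of mature red cells, was at 0.162 FPKM from 20 reads and then 5.6 FPKM from 642 reads, 34.5-fold higher (22.2 to 56.9). The spectrin gene Sptb (0.215 and 0.983 FPKM) stayed under 5 FPKM. The carbonic anhydrases Car1 (905 and 1995 FPKM) and Car2 (1139 and 1893 FPKM) were already high at steady state.

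The erythroid transcription factors differed in both directions: 3 of 12 were at least 2-fold higher and 5 lower, against 10.3% and 22.6% of all genes. The median of -0.36 turned to 0.20 under upper-quartile scaling. Klf1 was at 70.0 and 427 FPKM, 6.10-fold higher (5.85 to 6.35), and Gata1 (chromosome X, 7959260 to 7976663) at 38.9 and 118 FPKM, 3.04-fold higher (2.90 to 3.18). Gata2, which Gata1 replaces as red cells mature, was at 54.1 and 5.98 FPKM, 9.05-fold lower (8.40 to 9.77). Lmo2 (457 and 86.2 FPKM), Nfe2 (199 and 37.8 FPKM) and Myb (32.3 and 10.8 FPKM) were lower too, while Tal1 was at 7.83 and 6.10 FPKM. Epor, the erythropoietin receptor, was 3.10-fold higher (2.88 to 3.34) at 20.7 and 64.1 FPKM. Of the 13 genes of its signalling list, Epor was the only one higher by 2-fold. Lower by 2-fold were 9 of the 13, against 22.6% of all genes. They included the feedback inhibitor Socs3 (21.7 and 0.738 FPKM) and the kinase Jak2 (8.80 and 3.10 FPKM). Of the 13, 8 reached 5 FPKM at steady state only. The list median was -1.21, and -1.16 over the 5 at 5 FPKM in both libraries.

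Metallothioneins, which bind zinc and copper, were higher in both members kept. Mt1 was at 271 and 2095 FPKM, and Mt2 at 64.5 and 716 FPKM, 11.1-fold higher (10.4 to 11.9).

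Outside the erythroid lists, Tcrg-C1, a constant segment of the T cell receptor gamma locus, was at 26.6 FPKM at steady state and 1061 FPKM after irradiation, 39.9-fold higher (36.8 to 43.3), and in wild type at 17.8 and 1969 FPKM. The subunits Cd3d and Cd3e of the receptor complex stayed under 5 FPKM, at 4.48 and 1.25 FPKM after irradiation. The subunit Cd3g reached the minimum and was higher after irradiation, by 1.52 on the log2(FPKM + 1) scale. Cda, cytidine deaminase, was at 0.306 and 45.1 FPKM from 8 and 1094 reads, and in wild type at 0.148 and 67.1 FPKM. C2cd4a (0.410 and 26.5 FPKM), Col13a1, a membrane collagen (0.198 and 20.6 FPKM), and Defb26, a beta-defensin (0.353 and 18.7 FPKM), were likewise near 0 at steady state. Rpl29, a ribosomal protein gene with many pseudogene copies, was at 18.2 and 266 FPKM, and its reads may be split among copies.

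Genes of mitosis were higher in larger numbers than genes of replication. Of 42 mitotic genes, 24 were at least 2-fold higher, against 10.3% of all genes, and 0 lower, with a median of 1.06 (wild type 1.57). Ccnb1, cyclin B1, was at 25.2 and 106 FPKM, Plk1 at 16.8 and 68.5 FPKM, Ube2c at 43.0 and 176 FPKM, and Aurka at 18.1 and 60.9 FPKM. Mki67, the proliferation marker Ki-67, was at 4.75 and 5.03 FPKM, a ratio of 1.06 whose counting interval (0.978 to 1.15) includes 1. Of 39 replication genes, 5 were at least 2-fold higher, a share near that 10.3%, and 0 lower, with a median of 0.49 (wild type 1.03). Rfc4, of the clamp loader, was at 53.2 and 117 FPKM and Mcm10 at 1.79 and 5.65 FPKM, while Rfc1 was at 13.9 and 8.23 FPKM.

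Nucleotide and folate enzymes were at least 2-fold higher in 5 of 23 and lower in 0, against 10.3% and 22.6% of all genes. The median was 0.82 (wild type 1.35). The mitochondrial folate enzyme Mthfd2 was at 5.18 and 24.1 FPKM, its cytosolic counterpart Mthfd1 at 33.3 and 121 FPKM, and Rrm2, of ribonucleotide reductase, at 51.3 and 179 FPKM. Ccne1, cyclin E1, was at 12.7 and 58.3 FPKM, while Ccng2, a cyclin linked to cell cycle exit, was at 16 and 1.78 FPKM. Cdk6 (5.70 and 4.81 FPKM) and Ccnd2 (40.6 and 23.4 FPKM) differed by less than 2-fold.

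Of 5 cyclin-dependent kinase inhibitors, Cdkn1c, p57, which marks resting stem cells, was at 7.36 and 0.376 FPKM, and Cdkn2d at 78.4 and 21.9 FPKM. Cdkn1a, p21, was at 68.8 and 36.6 FPKM, 1.88-fold lower (1.78 to 1.99). Among 18 targets and regulators of p53, 3 were at least 2-fold higher and 5 lower, against 10.3% and 22.6% of all genes. The list median of -0.26 turned with scaling. Bax, which promotes cell death, was at 119 and 226 FPKM, and Sesn1 at 34.8 and 8.29 FPKM. All 19 DNA repair genes kept were under 2-fold in either direction on the log2(FPKM + 1) scale, with a median of 0.19. Myc was 2.01-fold lower (1.95 to 2.07), at 197 and 98.1 FPKM, where wild type had 172 and 192 FPKM. Its partner Max was at 6.09 and 19.1 FPKM.

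The series title names a mitochondrial metabolism programme, so the mitochondrial lists were described in both genomes. Of 76 nuclear genes for respiratory chain and ATP synthase subunits, 9 were at least 2-fold higher, near the share of 10.3% over all genes, and 50 at least 1.5-fold higher, against 20.8% of all genes; 0 were 1.5-fold lower, and the median was 0.70 (wild type 1.03). Cycs, cytochrome c, was at 76.9 FPKM at steady state and 3.04-fold higher after irradiation, Uqcr10 at 294 and 787 FPKM, Atp5g1 at 74.0 and 214 FPKM, and Uqcr11 at 386 and 1036 FPKM. The subunit Sdha was level at 98.2 and 98.8 FPKM. The 10 mitochondrially encoded genes kept were lower in sign, 2 of them by 2-fold, near the share of 22.6% over all genes. Their median was -0.65 (wild type -0.61) and ranged from -0.70 to -0.06 over scalings. mt-Co1 was at 733 and 393 FPKM, where wild type had 146 and 337 FPKM, and mt-Atp6 at 57.6 and 23.0 FPKM.

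Other metabolic lists were mixed. Of 24 tricarboxylic acid cycle genes 3 were at least 2-fold higher and 1 lower: Mdh2 was at 141 and 330 FPKM and Idh2 at 109 and 50.6 FPKM. In glycolysis, 2 of 22 were higher and 6 lower, and 5 of the 22 reached 5 FPKM at steady state only. Over all genes 10.3% were higher and 22.6% lower by 2-fold, near both glycolysis shares. Ldhb, the lactate dehydrogenase subunit of resting tissue, was at 131 and 2.85 FPKM, 45.8-fold lower, while Ldha was at 420 and 834 FPKM. The red cell pyruvate kinase gene Pklr was at 1.32 and 8.78 FPKM, and Pkm at 267 and 106 FPKM. Mitochondrial biogenesis factors were all under 1.5-fold; Tfam was at 17.5 and 16.7 FPKM, and Ppargc1a, which did not reach the minimum, at 0.313 and 0.252 FPKM. Fatty acid oxidation genes were lower by 2-fold in 2 of 18, Acadm and Cpt1a, with a median of -0.15 that turned with scaling.

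Genes of protein production and of the proteasome were higher by small amounts in large numbers. At 1.5-fold, 49 of 76 mitochondrial ribosomal protein genes, 38 of 81 cytosolic ones, 18 of 29 ribosome biogenesis factors, 30 of 46 proteasome genes and 12 of 20 transfer RNA synthetases were higher, against 20.8% of all genes. Their medians lay between 0.57 and 0.71, where wild type had 0.94 to 1.34. Nhp2, a nucleolar protein, was at 194 and 666 FPKM, Npm1 at 255 and 620 FPKM, and Psmb3 at 155 and 397 FPKM. The immunoproteasome subunits Psmb8 (76.7 and 39.7 FPKM) and Psmb9 (65.0 and 36.1 FPKM) were lower. The mitochondrial chaperones Hspe1 (147 and 677 FPKM) and Hspd1 (197 and 572 FPKM) were the highest of the heat shock list by difference. Genes of higher mean level had higher differences over all genes (Spearman 0.35 across the 7393 genes, which share both libraries), and the part of level in these lists was not tested.

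**Figure D3:**
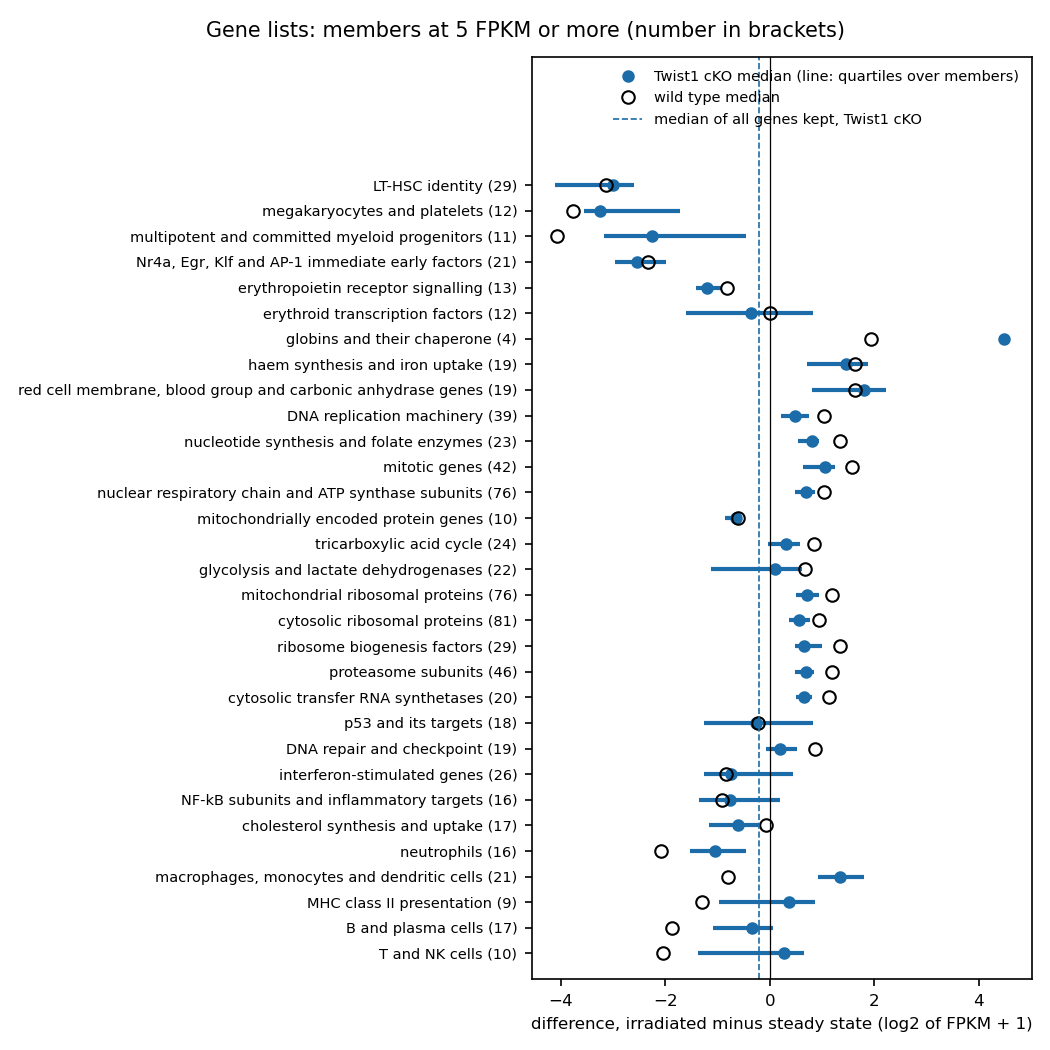
Median difference (log2 of FPKM + 1, irradiated minus steady state) of each gene list in Twist1 cKO (blue points, lines span the quartiles over members) and in wild type (open circles), with the median of all genes kept (dashed, -0.20). The globin list lies at 4.49, the LT-HSC list at -3.0, and the macrophage list at 1.34 in Twist1 cKO and -0.80 in wild type.

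Markers of cells that the sort should have removed were present in both libraries. Of 21 macrophage, monocyte and dendritic cell markers kept, 13 were at least 2-fold higher after irradiation in Twist1 cKO, against 10.3% of all genes. Only 1, Ly6c2, was lower (165 and 29.2 FPKM), against 22.6% of all genes. The list median was 1.34. Of the 21, 5 reached 5 FPKM after irradiation only, and the median over the 16 at 5 FPKM in both libraries was 1.58. The summed level of all 27 was 954 FPKM at steady state and 2309 FPKM after irradiation, and none of the 27 was at 0. The complement gene C1qb was at 183 and 616 FPKM, Cd5l at 16.5 and 71.3 FPKM, Adgre1, which encodes F4/80, at 6.07 and 21.6 FPKM, and the haem oxygenase Hmox1 at 33.5 and 112 FPKM. Marco (chromosome 1, 120474538 to 120505024), a scavenger receptor, had 15 reads (0.309 FPKM) and then 2953 reads (65.4 FPKM), 212-fold higher (128 to 379), the largest difference among the genes that the naming rule covers.

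The wild-type pair differed the other way for this list. Its sum was 2595 FPKM at steady state and 1289 FPKM after irradiation, and the median was -0.80. Of 21 members kept in wild type, 1 was at least 2-fold higher and 7 lower, where 18.9% of all genes went each way. C1qb was at 599 and 352 FPKM there, and Marco, the member that was higher, at 1.86 and 16.8 FPKM. The gap between genotypes was wider in the steady-state libraries, 954 against 2595 FPKM, than in the irradiated ones, 2309 against 1289 FPKM. It was not tested, since 4 libraries leave 0 residual degrees of freedom for it.

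Markers of other lineages did not share 1 direction in Twist1 cKO. For comparison, 10.3% of all genes kept were at least 2-fold higher and 22.6% lower. Of 16 neutrophil genes, 9 were at least 2-fold lower and 2 higher (sums of 3818 and 2482 FPKM): S100a9 was at 915 and 436 FPKM and Retnlg at 14.2 and 36.7 FPKM. Of 17 B and plasma cell genes, 5 were lower and 1 higher, and the median of -0.34 turned to 0.23 under upper-quartile scaling. The heavy chain Ighm was at 16527 and 2699 FPKM and Igha at 1290 and 9050 FPKM, while the light chain Igkc was at 46140 and 48437 FPKM. Immunoglobulin genes and Jchain took 10.7% of recovered reads at steady state and 10.1% after irradiation, and in wild type 16.1% and 3.03%. Of 9 MHC class II genes, 1 was higher and 2 lower, and of 10 T and NK cell genes, 1 was higher and 4 lower, with a median of 0.28 that turned to -1.50 at a minimum of 20 FPKM. The part of such cells in the other differences was not tested; without immunoglobulin genes and these markers, 671 genes were at least 2-fold higher and 1556 lower.

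**Figure D4:**
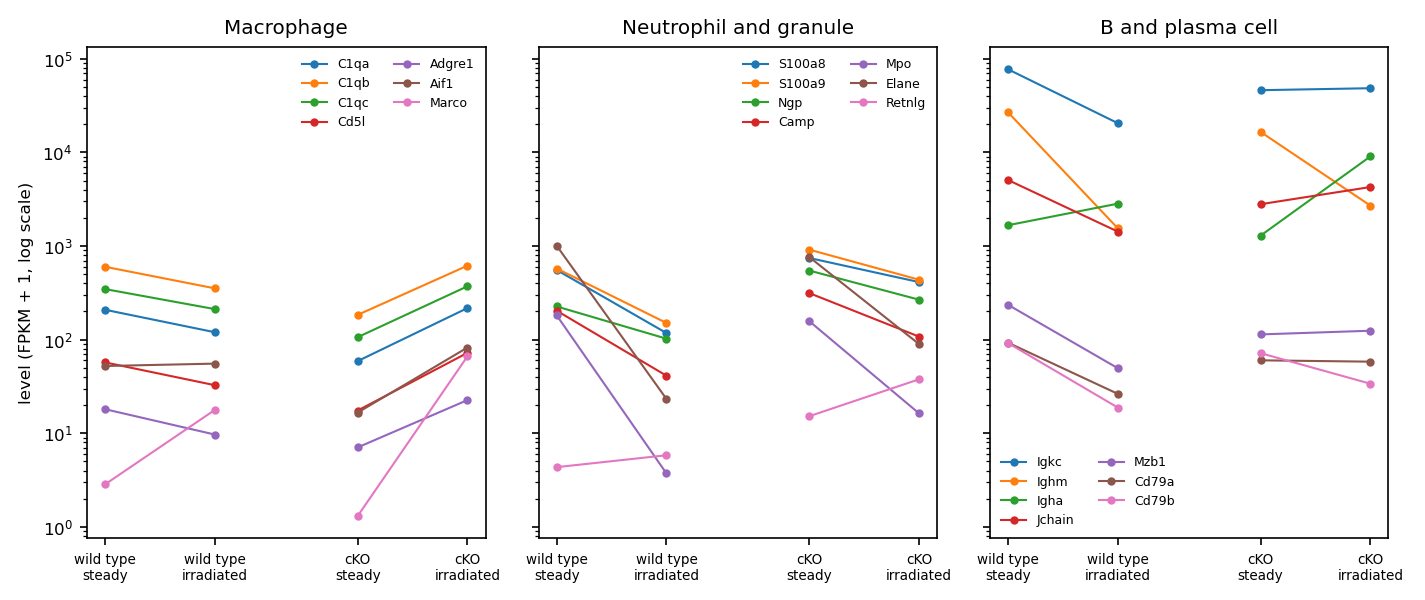
Levels (FPKM + 1, log scale) of 7 macrophage, 7 neutrophil and 7 B and plasma cell genes in the 4 libraries, 1 point per library; lines join steady state and irradiated libraries of a genotype. C1qb goes from 183 to 616 FPKM in Twist1 cKO and from 599 to 352 FPKM in wild type.

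Gene by gene, the irradiation differences of the 2 genotypes were correlated. Over 7039 genes kept in both, the differences had a Pearson correlation of 0.73 and a Spearman correlation of 0.87, as a description across genes, which are not independent and share the sex-linked difference between their libraries. Of 632 genes higher by 2-fold in Twist1 cKO, 486 (76.9%) were higher by 2-fold in wild type, and these were 36.2% of 1342 such genes in wild type. Of 1548 lower in Twist1 cKO, 1088 (70.3%) were lower in wild type, or 82.4% of 1320. In wild type, 18.9% of 7418 genes were higher by 2-fold and 18.9% lower (34.9% and 26.9% at 1.5-fold), with a median of 0.21. Of the 7039, 42 genes were higher by 2-fold in Twist1 cKO and lower in wild type, and 5 the reverse. The Twist1 cKO difference was at least 2-fold above the wild-type one in 341 genes and at least 2-fold below it in 101. The median gap between genotypes was -0.41, Twist1 cKO minus wild type.

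Genes with the widest gap are named by rank, without a test. Ldlrad4, a membrane protein that restrains TGF-beta signalling, was at 2.22 and 31.4 FPKM in Twist1 cKO and at 1.59 and 1.58 FPKM in wild type. Slpi, a secreted protease inhibitor, was at 86.6 and 121 FPKM against 289 and 53 FPKM. Cd209f, a lectin of macrophages, was at 6.5 and 34.6 FPKM against 27.1 and 15.3 FPKM. The globins were higher in both genotypes, with a median of 4.49 against 1.94, and Hba-a1 had its lowest level of the 4 libraries in Twist1 cKO at steady state (255 FPKM, wild type 685 FPKM) and its highest after irradiation (6074 FPKM, wild type 2762 FPKM). Alas2 was at 2.11 and 37.9 FPKM against 4.36 and 12.7 FPKM. Klf1, by contrast, was at 427 FPKM after irradiation in Twist1 cKO and 703 FPKM in wild type. On the other side, Osm, an interleukin-6 family cytokine, was at 7.55 and 13.7 FPKM against 6.37 and 32.1 FPKM, and Prmt1, an arginine methyltransferase, at 28.6 and 44.4 FPKM against 14.6 and 69.4 FPKM.

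**Figure D5:**
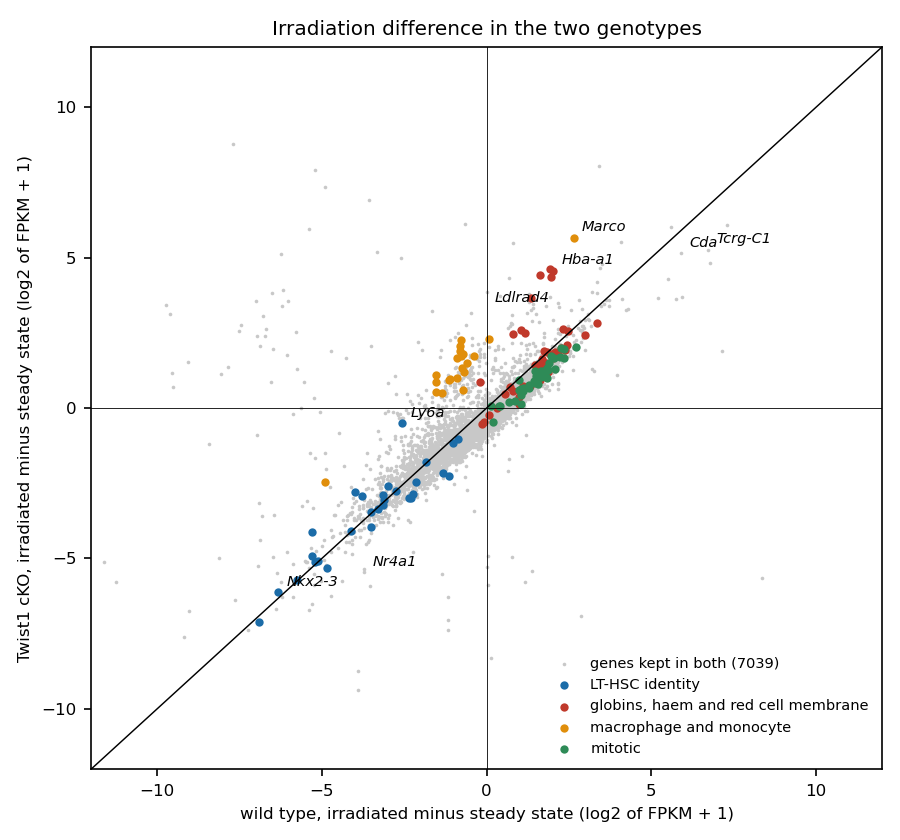
Difference (log2 of FPKM + 1, irradiated minus steady state) in wild type (x axis) and Twist1 cKO (y axis) for the 7039 genes kept in both, with the line of equal values. The 4 uppermost red points are the globins (median 4.49 against 1.94), which lie above the line as do the macrophage markers (orange, median 1.34 against -0.80), and LT-HSC genes (blue) have medians of -3.0 and -3.14.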

How the data were processed

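The authors deposited 1 table of FPKM per RNA library (4 libraries, 30409 genes, Twist1 cKO and wild type, steady state and 12 days after irradiation). Tools in the submitters' processing notes are HOMER, MACS2 2.1.0, Bowtie and BWA 0.7.12-r1039, with mm10 as the genome build. Which of them made the FPKM, and the read counting, are not given in the sources used here. Genes were joined by Ensembl identifier. Reads behind each value were recovered as whole multiples of a per-gene unit, with the procedure tested on simulated data, and used for depth, floors of 3 reads, and 95% counting intervals (Clopper-Pearson for shares, conditional exact binomial for ratios). The difference is log2(FPKM + 1), irradiated minus steady state, over genes whose higher library reached 5 FPKM, counted at 2-fold. Promoters and gene positions are from RefSeq tables on GRCm38.p6.

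Genes were named by rule: the 12 largest differences per direction at 10 FPKM or more (without microRNA, predicted, pseudogene, olfactory and receptor or immunoglobulin segment symbols, a filter that did not cover Tcrg-C1), up to 4 of each of 51 gene lists plus members a count turns on, the 6 widest gaps between genotypes per direction, and a short set of stem cell and erythroid genes. Further list members were named as examples after their values were seen. Some genes the rule covers are not reported here. The genes and lists were chosen with earlier results of these data known. Alternatives covered the pseudocount, minimum, fold, scaling and gene sets. Python 3.11.15, numpy 2.4.6, pandas 2.3.3 and scipy 1.17.1 were used.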

Additional observations from a re-analysis of the deposited data

Results flagged for a closer look

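The median of the macrophage, monocyte and dendritic cell markers was 1.34 in Twist1 cKO and -0.80 in wild type, a gap of 2.14 on the log2(FPKM + 1) scale. It is listed because the 2 genotypes moved in opposite directions under the same contrast, each with 1 library per group. The difference was not tested.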

How the results depend on the processing

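The counts of 762 higher and 1673 lower genes and the median of -0.20 depended on the settings as follows. With a pseudocount of 5 FPKM, 960 genes were lower. Scaling by the upper quartile gave 2033 higher and 865 lower genes and a median of 0.45, and leaving out the 50 most abundant genes a median of -0.32. Minimums of 1 FPKM and of no FPKM both gave 1807 and 2680 genes, the latter with a median of 0.014, and a minimum of 20 FPKM gave 457 and 612 with a median of 0.12. A 4-fold threshold gave 253 and 608 genes, a 1.5-fold threshold 1536 and 2559, and, chosen after seeing the data, a minimum of 5 FPKM in both libraries 462 and 545. Centring, also chosen after seeing the data, gave 1070 and 1358. The share of higher genes was 31.3%, and 70.2%, 44.1%, 45.9% and 42.8% under upper-quartile scaling, centring, the minimum in both libraries and the minimum of 20 FPKM. At the 20 FPKM minimum the medians of 4 lists turned: mast cell and basophil genes from -1.24 to 0.45, interferon genes from -0.75 to 0.062, T and NK cell genes from 0.28 to -1.50, and fatty acid oxidation genes from -0.15 to 0.14. Scaling turned the medians of 11 of 51 lists, and of 222 named genes the sign of 5 (Tfb1m, Mfn2, Twnk, Ly6a and Ppargc1a) and of 0 of the 192 at least 2-fold apart. The scalings moved the median of all genes by up to 0.64. No paired analysis was possible because each group has 1 library and the labels carry no replicate numbers. Depth limits genes with few reads, and without replicates no setting gives an error between mice.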

Other observations

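Interferon-stimulated genes were mixed in Twist1 cKO: of 26 kept, 5 were at least 2-fold higher and 11 lower after irradiation. Over all genes the shares were 10.3% and 22.6%. Of the 26, 10 reached 5 FPKM at steady state only. The median was -0.75, and -0.18 over the 13 at 5 FPKM in both libraries. Ifit3 was at 3.66 FPKM at steady state and 13.7 FPKM after irradiation, Isg15 at 17.0 and 42.7 FPKM, and Irf7, a regulator of the response, at 11.3 and 26.7 FPKM. The guanylate-binding protein gene Gbp2 was at 19.9 and 4.39 FPKM and Ifi203 at 13.9 and 1.96 FPKM. In wild type 0 of 24 were higher by 2-fold and 9 lower, where 18.9% of all genes went each way. Chemokine genes differed in both directions in Twist1 cKO. In the inflammatory list, 6 of 16 genes were at least 2-fold lower and 0 higher, and 6 of the 16 reached 5 FPKM at steady state only. The median over the 10 at 5 FPKM in both libraries was -0.26. Within this list, Ccl4 was at 391 and 32.0 FPKM and Ccl3 at 70.8 and 13 FPKM, while Ccl5 was at 11.6 and 21.7 FPKM. Outside it, and chosen after their values were seen, Ccl8 was at 9.69 and 122 FPKM, Ccl6 at 15.4 and 165 FPKM, Ccl12 at 2.51 and 36.1 FPKM and Ccl7 at 1.48 and 21.4 FPKM.

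Cholesterol genes were at least 2-fold lower in 6 of 17, against 22.6% of all genes, and higher in 0, with a median of -0.61. Of the 17, 6 reached 5 FPKM at steady state only, and the median over the 11 at 5 FPKM in both libraries was -0.32. The regulator Srebf2 was at 26.8 and 4.08 FPKM and Insig1 at 15.9 and 2.39 FPKM. Ebp, an enzyme of cholesterol synthesis, was at 35.0 and 56.8 FPKM. Pink1, a kinase that marks damaged mitochondria, was at 58.2 and 13.6 FPKM, and 6 of the 22 mitophagy and autophagosome genes kept were at least 2-fold lower with 0 higher, near the 22.6% of all genes that were lower, with a median of -0.56 that turned with scaling. The survival gene Mcl1 was at 118 and 26.6 FPKM, while Bcl2a1a (3.39 and 30.6 FPKM) and Bcl2a1d (4.96 and 24.8 FPKM), near-identical copies whose reads may be split, were higher. Among amino acid stress genes, Asns, asparagine synthetase, was at 27.6 and 111 FPKM and Trib3 at 9.86 and 1.12 FPKM.

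Of 7 marrow stroma markers kept, 4 were at least 2-fold lower and 1 higher, against 22.6% and 10.3% of all genes. The median was -1.04. Of the 7, 4 reached 5 FPKM at steady state only, and the median over the 2 at 5 FPKM in both libraries was -0.39. The member that was higher was Bglap, osteocalcin, at 0.321 and 7.04 FPKM, and in wild type at 0.435 and 9.28 FPKM. Cxcl12, the niche chemokine, was at 16.7 and 2.04 FPKM. Eosinophil-associated Ear2 was at 25.6 and 85.6 FPKM and Ccr3 at 8.12 and 21.9 FPKM, while the mast cell proteases Cpa3 (26.6 and 1.10 FPKM) and Tpsb2 (10.6 and 0.0394 FPKM) were lower.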
